A study of Drosophila melanogaster with 3 samples.

Results

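The receptors described here are the gustatory receptors (Gr genes) and the ionotropic receptors (Ir genes) of *Drosophila melanogaster*, measured in late pupal wings. They were found by symbol, among probe sets named for exactly 1 gene, and for each gene the probe set with the highest mean log2 signal over the arrays was kept. This gave 109 genes, 56 Gr and 53 Ir, of 11981 named genes. The RefSeq gene table holds 126 genes with such symbols. Of the remaining 17, only shared probe sets represented 5, and the other 12 were not analysed here.

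All arrays belonged to 1 group: wings of Oregon R pupae, kept at 25 C and dissected at about 80 h after puparium formation, with no treatment and no mutant allele given in the labels. RNA came from batches of 40 flies, 5 ug of total RNA was labelled, and 3 biological replicates were hybridised to 1 Affymetrix array each. The age was estimated by eye from how far the wings were pigmented, and each sample pools the wings of many animals. The whole wing was used, with blade, veins and margin together, and the design holds no contrast between conditions.

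Flies taste with bristles on the mouthparts, legs and wing margin, each housing a few gustatory neurons among non-neuronal support cells. Gr proteins are ligand-gated channels of sugar, bitter and carbon dioxide neurons. Ir proteins derive from ionotropic glutamate receptors, and a tuning Ir usually works with a broadly expressed Ir co-receptor. The wing margin carries such taste bristles along its anterior edge, and their neurons are a small share of the wing's cells, most of which are epidermal. In a bulk sample, fewer cells of a type and less RNA per cell cannot be told apart.

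The question was which receptors rose over background on all arrays. Background was set by genes whose products belong to other organs, 56 odorant receptor genes and 34 eggshell or male accessory gland genes. On each array the 95th percentile of these 90 genes served as reference level, a signal of 106, 109 and 96.5 on replicates 1, 2 and 3. Of these 90 genes 1 was itself called, the follicle cell gene Fcp3C (1.29 over the level), named here because of its value. Signals are linear probe set intensities, and a difference is the log2 signal of a gene less the reference level on that array. A gene was called above the reference when limma's one-sided moderated test gave a Benjamini-Hochberg adjusted p under 0.05 over all named genes. Levels of different probe sets depend on the probes as well as the transcript, so they are set against the reference and not read as an order of abundance.

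No gustatory or ionotropic receptor was called above the reference. The count was 0 of 109 by limma at the adjusted threshold, where 45.6% of all named genes were called. It was also 0 at an unadjusted limma p under 0.05. Among the 56 Gr genes 0 were called, and among the 53 Ir genes 0 were called. Only Ir25a lay over the reference on all 3 arrays, 1 of 109 receptors, against 48% of all named genes by the same rule without a model. The mean signal lay above the reference for this 1 receptor and below it for all others.

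The count of called receptors depended on where background was set. With 27 bacterial control probe sets as the reference, which put the level at 53.1, 41.6 and 41.7, limma called 8 of 109 receptors: Ir25a, Gr85a, Ir52b, Gr10a, Gr28a, Ir68a, Gr32a and Ir21a. At that level 56.5% of all named genes and 5 of 56 odorant receptors (8.93%) were called, against 7.34% of the receptors. Ir25a alone was called with the median of the reference genes plus 1 (log2), where 50.2% of named genes were called, and with odorant receptors alone as reference, where 47.7% were.

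The median receptor lay at -2.40 against the reference (log2), with values from -4.71 for Gr9a to 0.30 for Ir25a. All named genes had a median of 0.12 on the same scale. The median was -2.55 for the Gr genes and -2.40 for the Ir genes. The odorant receptors, which function in the antennae and maxillary palps and formed most of the reference, had a median of -2.07, and 0 of 56 were called. As they helped to set the level, few of them could lie above it, so this count is not an independent comparison. A gene's own 95% interval from limma lay wholly below the reference for 88 of the 109 receptors, which leaves 21 whose interval reached it. The interval was wholly below for 4115 of the 11981 named genes and for 45 of the 56 odorant receptors. These intervals do not include the uncertainty of the reference level itself.

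**Figure D1:**
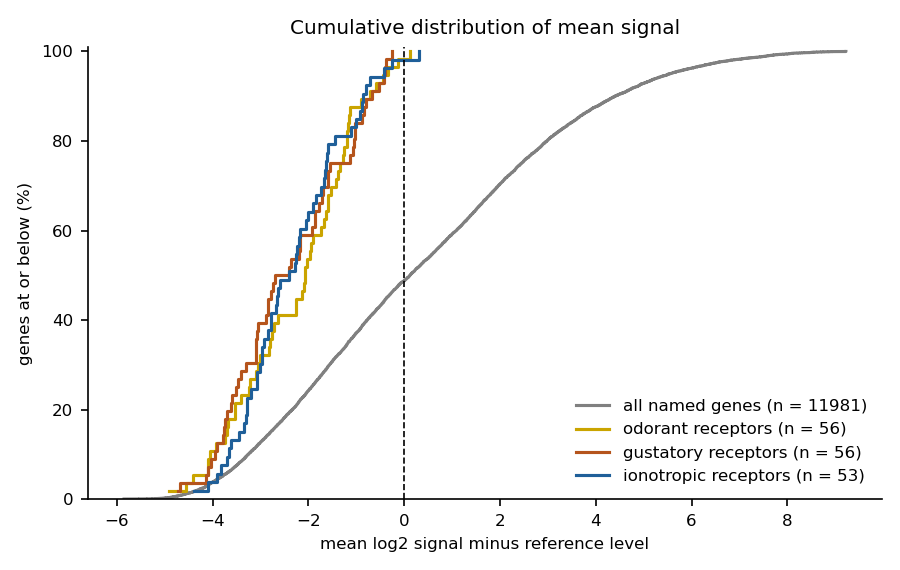
Cumulative share of genes (percent, vertical axis) at or below each mean log2 signal minus the reference level (horizontal axis), for gustatory receptors, ionotropic receptors, odorant receptors and all named genes. The 3 receptor families run close together to the left of the dashed reference line, with medians of -2.55, -2.40 and -2.07, and the line of all named genes crosses it near its median of 0.12.

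Few receptors passed the reference even on single arrays. On replicate 1, 3 receptors were over it (Ir25a, Ir52b and Gr64f), on replicate 2 again 3 (Ir25a, Gr92a and Gr59a), and on replicate 3 only Ir25a. These counts are 2.75%, 2.75% and 0.917% of the receptors, where about 5% of the reference genes lie above the level by its definition. Within the reference the shares were 1.79%, 1.79% and 3.57% of odorant receptors, and 11.8%, 11.8% and 8.82% of eggshell or accessory gland genes. Of all named genes 51.9%, 52.6% and 52.1% were over it on replicates 1, 2 and 3. In all, 5 of 109 receptors were over it on at least 1 array. Of the odorant receptors, 3 of 56 were over it on at least 1 array and 0 on all 3. Of the 34 eggshell or accessory gland genes, 6 were over it on at least 1 array and 2 on all 3.

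Ir25a encodes the most widely used Ir co-receptor, which takes part in olfaction, taste, and temperature and humidity sensing. Its signal was 118, 179 and 98.99 on replicates 1, 2 and 3. Each value exceeded the level of its array, on replicate 3 by 0.04 and on replicate 2 by 0.72 (log2). The mean difference was 0.30 ± 0.37 (SD, n = 3), with a 95% interval from -0.28 to 0.89, and it missed the threshold (limma adjusted p = 0.22). Without replicate 2 the difference was 0.09. Among all named genes with a mean difference between 0.25 and 0.5, 40 of 284 were called (14.1%), and between 1 and 1.5, 649 of 652 were called (99.5%). The smallest mean difference called for any named gene was 0.37, larger than that of Ir25a. The genes beside Ir25a in the RefSeq table, Fnta and tank, were both called, at 2.89 and 2.31 over the reference; they were looked up after the value of Ir25a was known, and their part in its signal was not tested.

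Other Ir co-receptors lay lower. Ir76b, the co-receptor of many taste neurons and itself linked to low salt taste, had signals of 34.0, 66.9 and 71.9. All its arrays were below the reference, with a mean difference of -0.92 ± 0.64 (SD, n = 3). Ir93a, which acts in temperature and humidity sensing, had signals of 10.5, 31.1 and 34.9, and a mean difference of -2.20. Ir8a, the co-receptor of acid-sensing olfactory neurons, had signals of 44.5, 30.8 and 3.26, and a mean difference of -2.65. Its replicate 3 value was far below the other 2, and all arrays of both genes stayed below the reference.

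**Figure D2:**
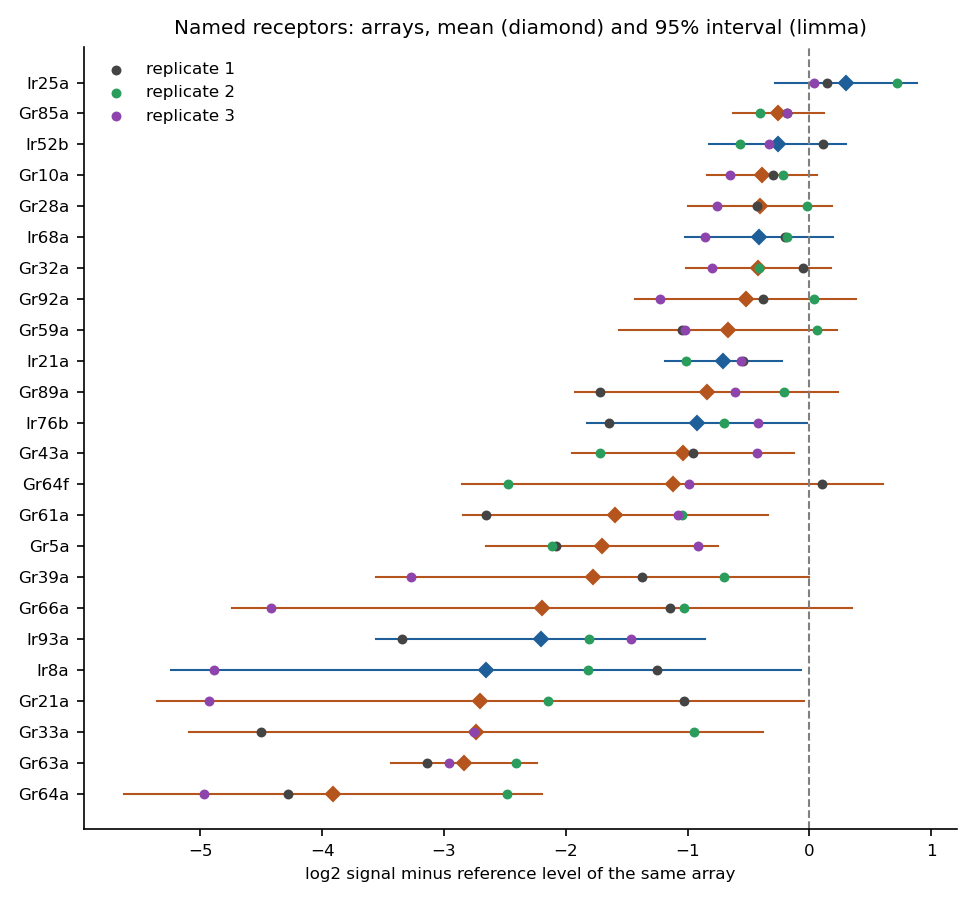
Difference of log2 signal from the array's own reference level (horizontal axis) for 24 receptors (rows), with 1 point per replicate, the mean as a diamond and the 95% limma interval as a line; Gr genes are orange and Ir genes blue. Only Ir25a has all 3 points to the right of the dashed reference line, and its interval runs from -0.28 to 0.89.

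Sugar receptors were not above the reference. Gr64f, the co-receptor needed for most sugar responses, had signals of 114, 19.6 and 48.7. Its replicate 1 value was over the reference and the others were well below, which gave a mean difference of -1.12 with a 95% interval reaching 0.61. Gr43a, a fructose receptor that also acts in the brain, had signals of 54.6, 33.0 and 71.6, and a mean difference of -1.04. Gr61a and Gr5a, which act in glucose and trehalose sensing, lay at -1.59 and -1.70, and Gr64a, which acts in sucrose and maltose responses, was the lowest at -3.91. The interval lay wholly below the reference for 4 of the 5 measured sugar receptors. The other sugar receptors of the Gr64 cluster, Gr64b to Gr64e, shared probe sets. The pair of probe sets named for Gr64b and Gr64c lay at -2.15 and -2.86, and that for Gr64d and Gr64e lay at -2.33, so every probe set of the cluster had a mean below the reference.

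Bitter neurons express several receptors together. The 5 found in most bitter neurons are Gr32a, Gr33a, Gr39a, Gr66a and Gr89a, and 0 of them were over the reference on any array. Gr32a, which also takes part in male courtship choice, had signals of 103, 81.8 and 55.3. Replicate 1 came within 0.05 (log2) of the reference, and the mean difference was -0.42 with an interval from -1.02 to 0.18. Gr89a lay at -0.84, with 32.3, 94.2 and 63.3 on the 3 arrays. Gr66a, the receptor most used as a marker of bitter neurons, had signals of 48.1, 53.3 and 4.50, and a mean difference of -2.20. Gr33a and Gr39a lay at -2.73 and -1.78. A further 29 Gr genes listed with the bitter neurons had a median of -2.85. The highest were Gr28a (-0.40), a gene linked to ribonucleoside taste in larvae, Gr92a (-0.52) and Gr59a (-0.67). Gr92a had 112 and Gr59a 114 on replicate 2, both over that array's reference, against 41.3 and 47.6 on replicate 3.

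The carbon dioxide receptor is made of Gr21a and Gr63a and functions in antennal neurons. Gr21a had signals of 52.1, 24.6 and 3.16, and Gr63a had 12.1, 20.5 and 12.4. Neither passed the reference on any array, and their mean differences were -2.70 and -2.83.

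Ir genes of the antenna had no call either. Of 11 measured members 0 were over the reference on any array, with a median of -1.90. Ir68a, which acts in moist air sensing, came closest at -0.41, with 92.5, 95.8 and 53.2 on the 3 arrays. Ir21a, a cool-sensing receptor, lay at -0.71 with 73.0, 53.9 and 65.2, a narrower spread between arrays. The probe set named for both Ir75d and the cytochrome oxidase gene COX6AL2 was over the reference on replicate 2 alone and had a mean of -0.39.

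Among the 53 receptors outside these subgroups, 15 Gr and 38 Ir, the medians were -3.30 and -2.66. Gr85a had the highest mean of all Gr genes, with signals of 93.8, 82.2 and 85.0 and an SD of 0.10 (log2). It stayed below the reference on every array, at a mean difference of -0.26 with an interval from -0.63 to 0.12. Gr10a lay at -0.39 with 86.5, 93.8 and 61.4. Ir52b, from a cluster of receptors expressed in taste neurons, had 115, 73.3 and 76.9, with only replicate 1 over the reference, and a mean difference of -0.26. Its cluster neighbours Ir52a and Ir52c lay at -0.80 and -3.29, and Ir52d at -1.63.

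**Figure D3:**
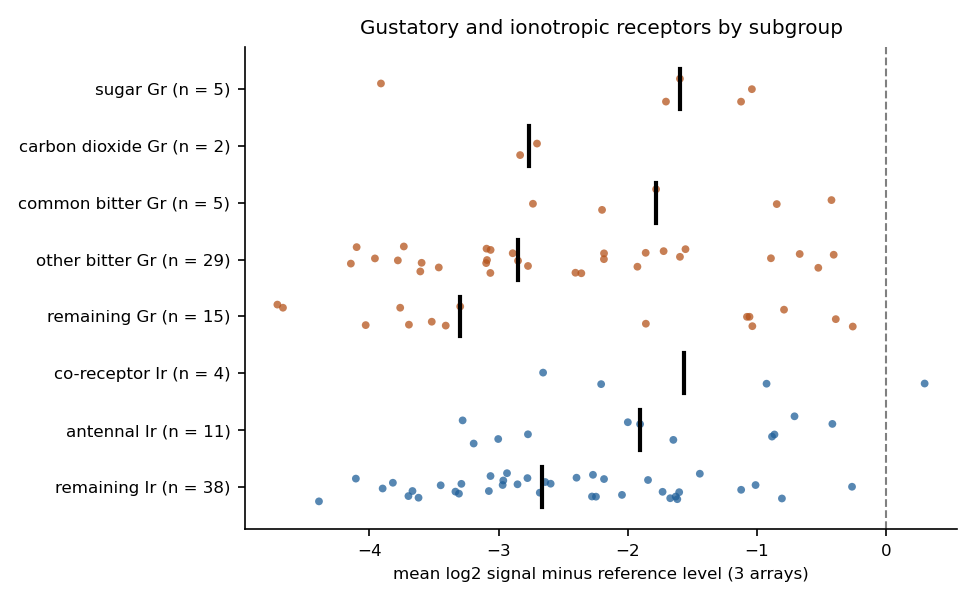
Mean log2 signal minus the reference level (horizontal axis) of each of the 109 receptors (points) by subgroup (rows), with Gr genes in orange, Ir genes in blue, and the subgroup median as a black bar. The medians run from -3.30 for the remaining Gr genes to -1.56 for the Ir co-receptors, and Ir25a is the single point to the right of the dashed reference line.

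Several probe sets were available for 9 receptors, and none of these probe sets was over the reference on any array. Gr39a, a gene with alternative first exons, had 5 probe sets with mean differences from -3.67 to -1.78. Gr23a had 3, at -1.08, -1.12 and -4.10, and its first and second probe sets ranked the arrays differently: replicate 1 was the highest on the first (6.53, log2 signal) and the lowest on the second (4.49). Ir41a had 3 as well, from -4.00 to -0.86.

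The spread between arrays was wide at these levels. The median SD was 0.90 (log2, n = 3) over the receptors, 0.91 over the odorant receptors, 0.83 over named genes with a mean below the reference and 0.33 over all named genes. The SD exceeded 1 for 49 of 109 receptors, and the highest and lowest array differed by more than 4-fold for 44. Between arrays, Pearson's r across the 109 receptors was 0.44, 0.40 and 0.41, against 0.93 for each pair over all named genes; genes are not replicates, and the range of levels differs between these sets. For the 56 odorant receptors r was 0.45, 0.46 and 0.35.

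A few receptors kept their place. Of the 20 highest receptors on each array, 7 were shared by all arrays: Ir25a, Gr85a, Ir52b, Gr10a, Gr28a, Ir68a and Gr32a. Replicate 2 was the highest array for 57 of 109 receptors. The median deviation of a receptor from its own mean was 0.35 on replicate 2, -0.12 on replicate 1 and -0.17 on replicate 3 (log2), and over all named genes with a mean below the reference it was 0.22, 0.04 and -0.17.

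**Figure D4:**
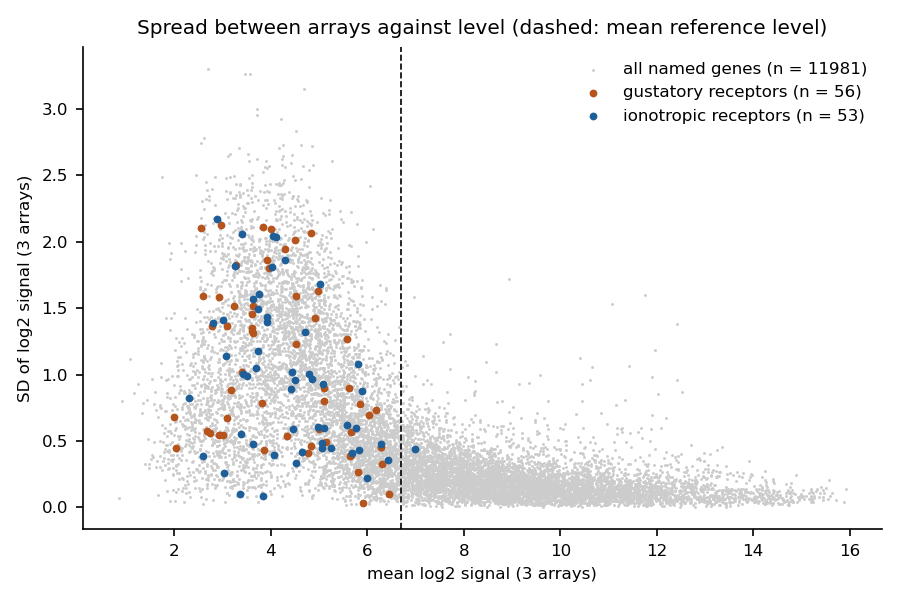
SD of log2 signal over 3 arrays (vertical axis) against mean log2 signal (horizontal axis) for all named genes (grey), Gr genes (orange) and Ir genes (blue); the dashed line is the mean reference level. The receptors sit left of the line, apart from Ir25a, in the range where the SD of all genes is wide, and their median SD is 0.90.

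Some receptors share their annotated span with other genes. Of the receptors, 22 overlap another protein-coding gene outside these families in the RefSeq table, and for 9 of them that gene was called, a share close to the 45.6% of all named genes. These were looked up after the calls were known. Gr64f overlaps CG11593, which lay at 4.60 over the reference, Gr39a overlaps Mondo (3.50), Gr32a overlaps CG6230 (3.14), and Gr2a overlaps futsch (1.01), with Gr2a itself at -3.76. The rest of the 9 are Gr77a with CG13252 (3.62), Gr8a with CG12121 (3.24), Ir51b with row (2.96), Gr94a with p53 (2.45) and Ir60e with Brca2 (0.89). Dhx15, the gene that overlaps Gr43a, was not measured and so could not be called. Another Gr or Ir gene was next in chromosomal order for 54 of the 109, as in the Gr22, Gr59, Ir7 and Ir94 clusters.

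Other genes of taste organs and nerves were above the reference in part, and their counts are to be read against the 45.6% of all named genes called. Of 28 measured DEG/ENaC channel genes 2 were called, ppk23 and ppk10, which are named because of their values. ppk23, a channel of pheromone-sensing taste neurons, had a log2 signal of 9.82, 9.73 and 9.85, all well over the reference, and a mean difference of 3.10 (limma adjusted p = 0.00018). ppk10 lay at 0.56 (limma adjusted p = 0.0185). The water receptor gene ppk28 lay at -1.99. The partners of ppk23 in pheromone sensing, ppk29 and ppk25, lay at 0.50 (limma adjusted p = 0.257) and -3.24. Of 14 glutamate receptor genes, a list that holds the ionotropic relatives of the Ir family and also the G protein-coupled mGluR and the chloride channel GluClalpha, 0 were called, with a median of -1.57 and 0 at an unadjusted limma p under 0.05.

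Transduction genes were called in 8 of 14 cases (57.1%, against 45.6% of all named genes): the G protein alpha subunit genes Galphaq (2.76), Galphao (3.87), Galphas (5.29) and Galphai (5.41), the phospholipase C gene Plc21C (5.99), the IP3 receptor gene Itpr (1.21), the TRP channel gene pain (3.31) and the adenylyl cyclase gene rut (0.79). Most of these act in many cell types. The chemical irritant channel gene TrpA1 (-3.86) and the odorant co-receptor gene Orco (-0.38) were not called. Of 20 sensory organ genes 6 were called (30%, a lower share than that of all named genes), and their median was -0.19. The 6 were nompA (3.12), which links the dendrite to the bristle, neur (1.81), pros (1.41), B-H2 (1.31), insc (2.78) and da (4.64). Not called and below the reference were sens (-3.94), ac (-2.06), sc (-1.89), amos (-1.58), ase (-1.36), ato (-1.19), nompC (-1.01), nompB (-0.93), eys (-0.76) and sv (-0.43). The uncalled genes ct (0.48) and B-H1 (0.05) had means above it. Poxn, which sets the taste fate of a bristle, had a log2 signal of 6.65, 6.80 and 7.39, over the reference on replicates 2 and 3, and a mean difference of 0.25 (limma adjusted p = 0.374).

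Neuronal markers were called in 7 of 14 cases (50%, near the 45.6% of all named genes). Among them were the synaptic gene Snap25 (2.95), cac (1.67) and the cholinergic pair VAChT (1.56) and ChAT (1.01), which mark the transmitter of fly sensory neurons. The transmitter markers VGlut (-3.20) and Gad1 (-2.47) were not called, nor were fne (-0.34), brp (-0.02) and para (0.89). elav, the general neuronal marker, was over the reference on all arrays at 0.94 but missed the threshold (limma adjusted p = 0.0812), and nSyb lay at -3.63. Of 5 genes listed as glial markers 4 were called (80%, against 45.6% of all named genes). These were Gs2 (5.72), nrv2 (4.87), moody (4.34) and repo (0.81), and alrm lay at -3.01. Gs2 varied between arrays, with a log2 signal of 12.3, 11.5 and 13.4 (SD 0.96, n = 3). Whether the signals of these 5 genes came from glia or from other cells of the wing was not tested. Of 4 measured photoreceptor genes 0 were called, with a median of -3.81 and 0 at an unadjusted limma p under 0.05. These lists describe the dissected tissue, and their levels were not compared statistically with those of the receptors.

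**Figure D5:**
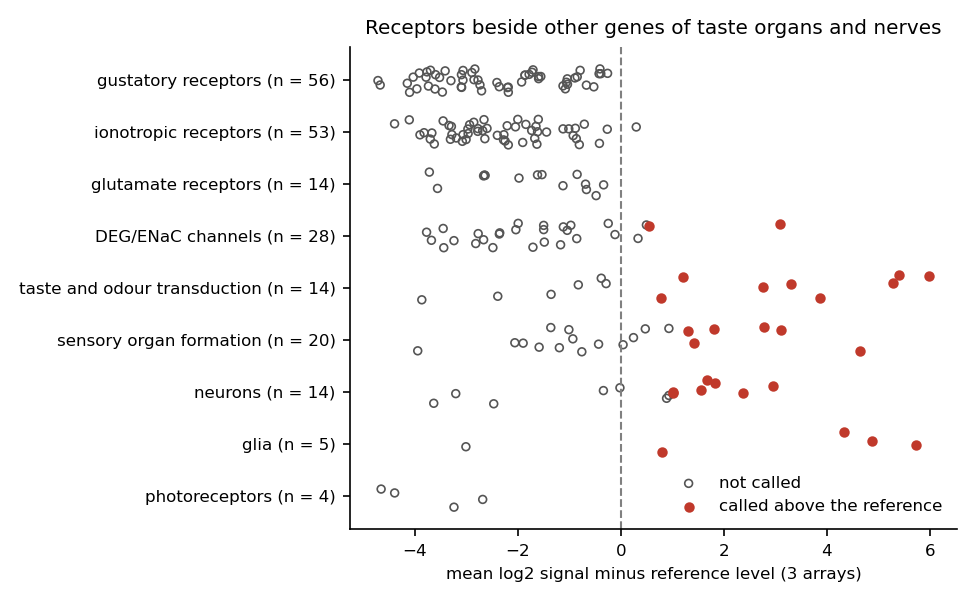
Mean log2 signal minus the reference level (horizontal axis) of the receptors and of 7 other gene lists (rows), with genes called above the reference by limma as filled red points and the others as open circles. No receptor, glutamate receptor or photoreceptor gene is filled. Filled are 2 of 28 DEG/ENaC channels, 8 of 14 transduction genes, 6 of 20 sensory organ genes, 7 of 14 neuronal genes and 4 of 5 glial genes. Of all named genes, 45.6% were called.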

How the data were processed

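Late pupal wings were profiled on 3 arrays. The authors deposited linear intensity values for 18952 probe sets. MAS5 and RMA are named in the submitters' processing notes, with no role, order or version, and no genome build is given in the sources used here. The trimmed mean of the deposited intensity values was 500.0 on every array, as MAS5 scaling leaves it, so no further normalization was applied. The median signal was 67.6, 73.3 and 59.7.

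Gene symbols came from the platform's annotation: 13646 probe sets had 1, 402 had several, and 4721 had none, apart from 183 controls. All 109 receptor symbols were found in the RefSeq table (assembly Release 6), which was used for names and neighbours only.

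The functions lmFit and eBayes of limma 3.58.1 (R 4.3.3) were applied to reference-subtracted log2 signals of 11981 genes, with a prior of 1.42 degrees of freedom and an SD of 0.301, and tested on simulated data. With 3 arrays, their number limits the precision. Nothing in the labels gives an array batch. Members, gene lists and tests were chosen with earlier results of these data known. Named receptors were those called, those over the reference on all arrays, the 10 highest not called, and all sugar, carbon dioxide, common bitter and co-receptor members. Alternatives covered the reference, probe set choice, normalization, offset, variance model, call rule and each replicate. Python 3.11.15, pandas 2.3.3, numpy 2.4.6 and matplotlib 3.10.9 were used.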

Additional observations from a re-analysis of the deposited data

How the results depend on the processing

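The count of receptors above the reference stayed at 0 with the 99th percentile, eggshell and accessory gland genes alone, the mean of probe sets, no _s_at, _x_at or _a_at probe sets (106 receptors), quantile normalization, log2(signal + 16) and an intensity trend, and was 0 without each replicate in turn (range 0 to 0; Gr and Ir alike). It was 1 (1 Ir, Ir25a) with the median of the reference genes plus 1 (50.2% of all named genes called), with odorant receptors alone as reference (47.7%), and with 3 arrays over the reference and no model (48%). With 27 bacterial control probe sets as reference, a level of 53.1, 41.6 and 41.7, 8 receptors were called (7.34%; 4 Gr and 4 Ir), against 56.5% of all named genes and 5 of 56 odorant receptors (8.93%).

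Ir25a ranged from -0.76 with the 99th percentile to 1.50 with bacterial controls, with limma adjusted p from 0.00545 to 1.0. It lay at -0.36 with eggshell and accessory gland genes alone, 0.56 with odorant receptors alone and 1.20 with the median plus 1, and between 0.09 and 0.43 without 1 replicate. With bacterial controls the sign turned for Gr85a (0.94), Ir52b (0.94), Gr10a (0.81), Gr28a (0.80), Ir68a (0.79), Gr32a (0.78) and Ir21a (0.49), all called, and for Gr92a (0.68), Gr59a (0.53), Gr89a (0.35), Ir76b (0.28), Gr43a (0.16) and Gr64f (0.078), not called. With the median plus 1 it turned, without a call, for Gr85a (0.64), Ir52b (0.64), Gr10a (0.51), Gr28a (0.49), Ir68a (0.48), Gr32a (0.48), Gr92a (0.38), Gr59a (0.23), Ir21a (0.19) and Gr89a (0.053), and with odorant receptors alone for Gr85a (0.0030). The other 306 values of named receptors kept their sign and their side of the threshold. Signals this close to background limit any statement on receptors made by few cells. No paired analysis was possible because all samples form a single group.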
